A study of Mus musculus with 2 samples.

Results

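The matrix metalloproteinases (MMPs), the ADAMTS proteases, the ADAMTS-like proteins and their inhibitors were described in cultured perivascular cells (PCs) of the mouse aorta with and without the tetraspanin KAI1. Members were taken by gene symbol alone and comprised every numbered Mmp, Adamts and Adamtsl gene, the Timp genes and Reck. They numbered 52 of the 20211 gene symbols measured, with 23 MMP genes, 19 ADAMTS genes, 5 ADAMTSL genes, 4 TIMP genes and Reck.

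The study asked how KAI1, which is encoded by Cd82, acts on the growth of blood vessels. Both groups were primary aortic PCs on the C57BL/6 background, a WT culture and a culture labelled Kai1 KO (Kai1-/-), and neither received a treatment that the labels name. Both were grown in DMEM with 10% fetal bovine serum according to the labels, while the methods give a higher share of serum for expanding primary PCs. The methods describe adult mice of either sex and give an age range in weeks for them. The age, the sex and the number of animals behind each library are not given in the sources used here. Neither are the passage and the way the knockout allele was made. Each genotype had 1 library, so no difference below has a replicate check, no standard deviation and no p-value. Levels are RPKM, reads normalised to transcript length and to the size of the library, a scale per transcript length on which genes can be compared with each other. A difference is the log2 ratio of Kai1-/- to WT after 0.1 RPKM was added to both values. A gene was kept for counts if its mean over both libraries was at least 1 RPKM, and a change of more than 2-fold was counted as lower or higher.

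MMPs are zinc-dependent enzymes that are made as inactive proenzymes and between them can cleave most proteins of the extracellular matrix. ADAMTS proteases carry thrombospondin repeats and cut proteoglycans, procollagens and a few other matrix proteins, and the ADAMTS-like proteins share those repeats but have no protease domain. TIMPs bind the active site of these enzymes, TIMP3 being the main TIMP for ADAMTS proteases, and around blood vessels the balance of proteases and inhibitors sets how the basement membrane and the surrounding matrix are turned over.

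Of the 52 members, 10 lie side by side in a cluster on chromosome 9, from 7272514 to 7699585 in the genome build NCBIM37 (mm9). In this cluster Mmp13 was close to 0 in the Kai1-/- library while Mmp3 was higher in it. The promoters of the 3 cluster genes that were above 0 in both libraries are shown. They share a short motif, while the levels as deposited went in opposite directions (Mmp3 higher, Mmp10 and Mmp13 lower). How far Mmp3 was higher depended on the scaling of the libraries, as given below. The sequences are from RefSeq (GRCm38.p6) and run 5′ to 3′ over the 250 bases before the annotated start site, on the plus strand, with the AP-1 motif in capitals. They lie at chr9:7445572-7445821 for Mmp3, chr9:7502092-7502341 for Mmp10 and chr9:7272264-7272513 for Mmp13, and each matched NCBIM37 exactly, at 1 place with the same coordinates.
Mmp3: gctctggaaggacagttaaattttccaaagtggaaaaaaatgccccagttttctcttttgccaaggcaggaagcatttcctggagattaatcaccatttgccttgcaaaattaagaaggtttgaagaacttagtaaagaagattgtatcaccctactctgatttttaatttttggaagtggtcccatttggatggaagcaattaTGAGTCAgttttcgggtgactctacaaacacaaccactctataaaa
Mmp10: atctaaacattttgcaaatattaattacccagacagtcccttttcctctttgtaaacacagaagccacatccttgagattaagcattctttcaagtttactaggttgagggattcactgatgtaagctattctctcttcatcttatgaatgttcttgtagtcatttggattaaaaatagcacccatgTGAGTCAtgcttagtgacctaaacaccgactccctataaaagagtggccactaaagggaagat
Mmp13: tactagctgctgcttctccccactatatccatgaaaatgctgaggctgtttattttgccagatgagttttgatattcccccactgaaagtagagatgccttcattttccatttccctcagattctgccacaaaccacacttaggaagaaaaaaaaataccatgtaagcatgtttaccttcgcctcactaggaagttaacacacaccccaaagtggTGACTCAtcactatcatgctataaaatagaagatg
The first base of the AP-1 motif lay 46 bases upstream of the annotated start site in Mmp3, 63 in Mmp10 and 35 in Mmp13. The first base of the sequence TATAAA lay 7, 29 and 16 bases upstream of it. The annotated starts therefore do not lie at a common distance from TATAAA. Promoter windows of 300 bases (250 before and 50 after the start) were searched on both strands for the AP-1 motif, TGAGTCA or its reverse complement TGACTCA, and for TATAAA, and these motifs do not overlap. RefSeq windows matched 37 of the 52 members by symbol. The 15 without a window were Adamts4, Adamts5, Adamts6, Adamts7, Adamts8, Adamts10, Adamts15, Adamts16, Adamts19, Adamtsl1, Mmp2, Mmp9, Mmp16, Mmp17 and Mmp19. Of the 10 cluster genes, 7 had the AP-1 motif and all 7 also had TATAAA, namely Mmp1a, Mmp1b, Mmp3, Mmp7, Mmp10, Mmp12 and Mmp13. Of the 27 other matched members, 0 had the AP-1 motif. Over 32851 windows of all genes, 5.20% held the AP-1 motif, 13.6% held TATAAA and 0.941% held both. The members were counted per gene, with a match in any window of the gene. Counted in that way, 5.95% of 27025 genes had the AP-1 motif and 1.12% had both. A match is a description of the letters in the window and not a measured binding site.

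The targeted gene, Cd82, measured 12.8 RPKM in the WT library and 2.62 RPKM in the Kai1-/- library, which is 20.5% of WT. The libraries differed in other respects: the summed RPKM was 884463 in WT and 1238193 in Kai1-/-, of which the 81 genes for ribosomal proteins took 37.5% and 48.9%. The Y-linked genes Ddx3y, Eif2s3y, Kdm5d and Uty, at 6.56, 3.17, 0.941 and 0.479 RPKM in WT PCs, were all listed at 0 in Kai1-/- PCs, so sex and genotype cannot be told apart. Of 16 mural markers, 9 were kept and all 9 were lower in Kai1-/- PCs, 6 of them by more than 2-fold. All 16 together summed to 5923 RPKM in WT and 3203 in Kai1-/-. Acta2, which encodes smooth muscle actin, stood at 3823 and 2580 RPKM, Pdgfrb at 44.7 and 31.6, Cspg4, which encodes NG2, at 15.4 and 8.27, and Mcam at 4.90 and 0.264, whereas Rgs5 (0.0630 and 0.233), Kcnj8 (0 and 0.791) and Vtn (0 in both) were near or at 0. Of 12 fibroblast and adventitial markers 9 were kept, 4 more than 2-fold lower and 1 higher by that much. The sum over all 12 went from 24167 to 20638 RPKM, of which S100a4 alone gave 21546 and 19136. Of 16 endothelial markers 3 were kept, and all 16 together summed to 46.9 and 30.0 RPKM. Of the 3 kept, Eng was 42.0 and 21.4 RPKM, 0 were more than 2-fold lower and Egfl7 was higher (2.28 and 7.39). The defining Pecam1 and Cdh5 were 0.413 and 0.0267 RPKM in WT PCs and 0 in Kai1-/- PCs. Of 16 macrophage markers 5 were kept, 4 of them more than 2-fold lower and Cd14 higher (1.98 and 10.3 RPKM). All 16 together summed to 41.0 and 19.5 RPKM, with Csf1r at 11.7 and 2.66, Ptprc at 0.0407 and 0.00697, and Emr1 at 0 in both. The neutrophil markers summed to 12.5 and 11.5 RPKM and the epithelial ones to 137 and 111, of which Lce1g gave 90.2 and 0.728. Without Lce1g and Lce1h the epithelial sum was 30.8 in WT and 111 in Kai1-/-, with Krt19 at 29.3 and 91.3 RPKM and Ppl at 0.616 and 18.3. The part of these differences in the results below was not tested, and in such bulk libraries fewer cells of a type and less RNA per cell cannot be told apart.

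Most members were lower in the Kai1-/- library. Of the 52, 23 passed the filter on mean level and 29 did not. Among the 23, 19 were lower by any amount and 4 were higher, whereas 44.9% of the 10068 genes kept were lower by any amount. By more than 2-fold, 8 were lower, where the share over all genes kept was 7.81%: Adamts5, Adamtsl3, Adamtsl4, Adamtsl5, Mmp19, Mmp23, Mmp28 and Timp2. None of the 23, a count of 0, was more than 2-fold higher, where the share over all genes kept was 7.98%. The median log2 ratio of the 23 was -0.72, beside 0.08 over all genes kept. The 8 came from all 4 families, and the ADAMTS-like genes were the lowest family with a median of -1.32, followed by the MMP genes with -0.75, the ADAMTS genes with -0.59 and the TIMP genes with Reck at -0.52.

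**Figure D1:**
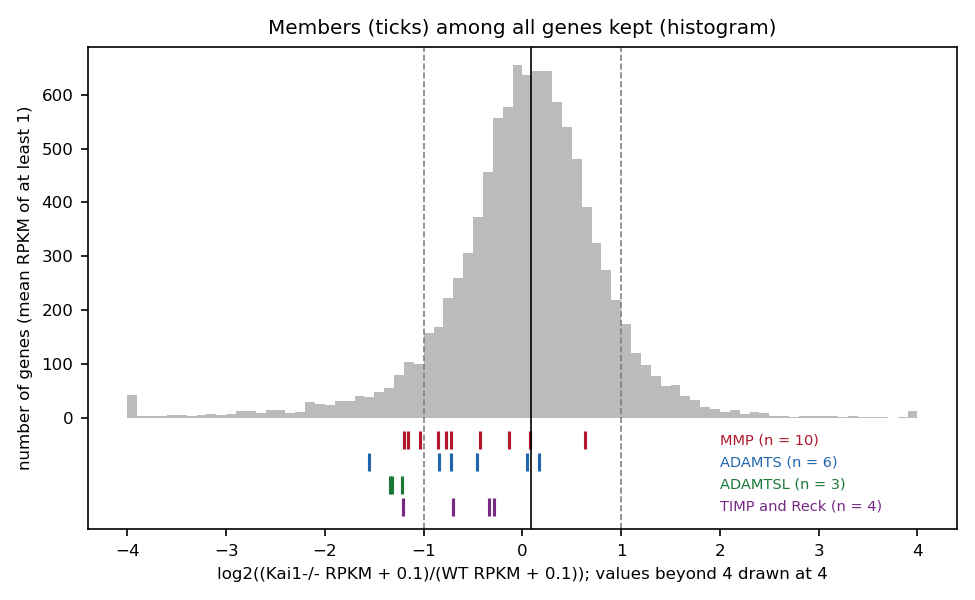
The histogram shows the log2 ratio of Kai1-/- to WT for the 10068 genes kept, with the 23 members kept drawn as ticks by family below it, the median of all genes (0.08) as a solid line and 2-fold as dashed lines. Of the ticks, 8 lie left of the lower 2-fold line and 0 right of the upper one, and all 3 ADAMTSL ticks lie left of it.

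**Figure D2:**
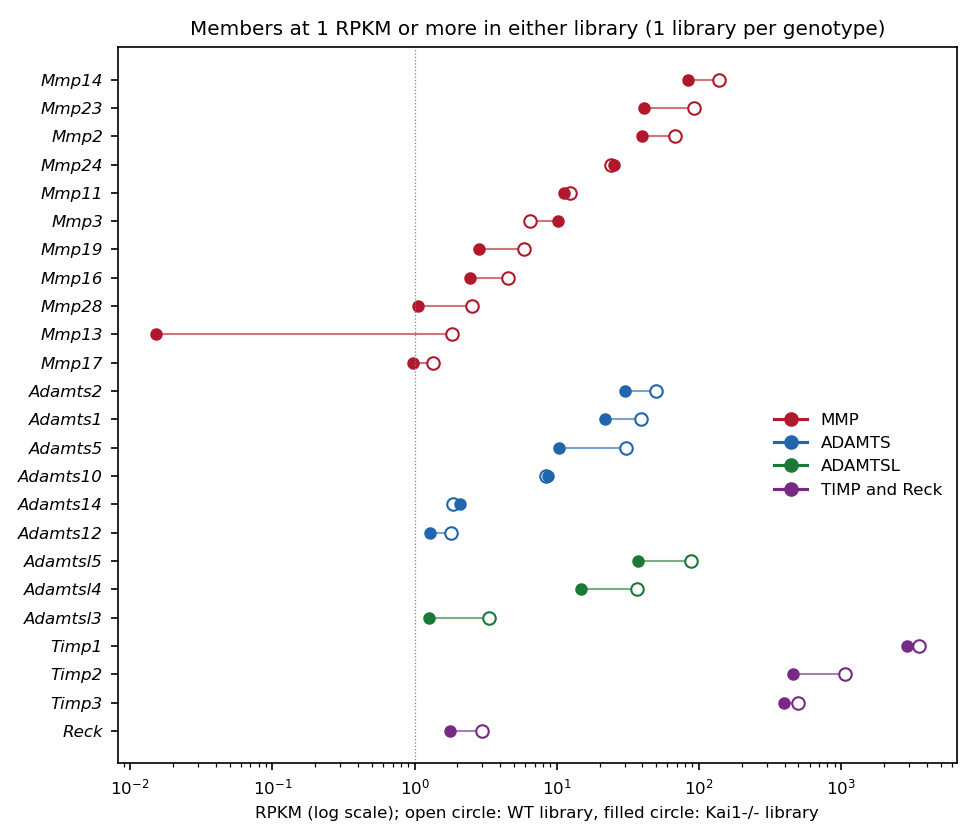
Each row is a member that reached 1 RPKM in either library, with the WT level as an open circle and the Kai1-/- level as a filled circle on a log axis in RPKM, coloured by family, and a dotted line at 1 RPKM. The filled circle lies to the left of the open one in all but Mmp3, Mmp24, Adamts10 and Adamts14, and Mmp13 has the widest gap.

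Counting error was small next to most of these differences. The number of reads behind each value was estimated from the spacing of low RPKM values, which gave about 29500000 reads for WT and 26700000 for Kai1-/-. Where the level in Kai1-/- PCs is given below as a percentage of WT, the interval after it is the exact 95% interval from those reads. It covers counting error and not the difference between cultures, animals or library preparations, so an interval that leaves out 100% does not show an effect of genotype. Of the 8 members more than 2-fold lower, Mmp19 and Mmp28 have intervals that cross 2-fold.

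**Figure D3:**
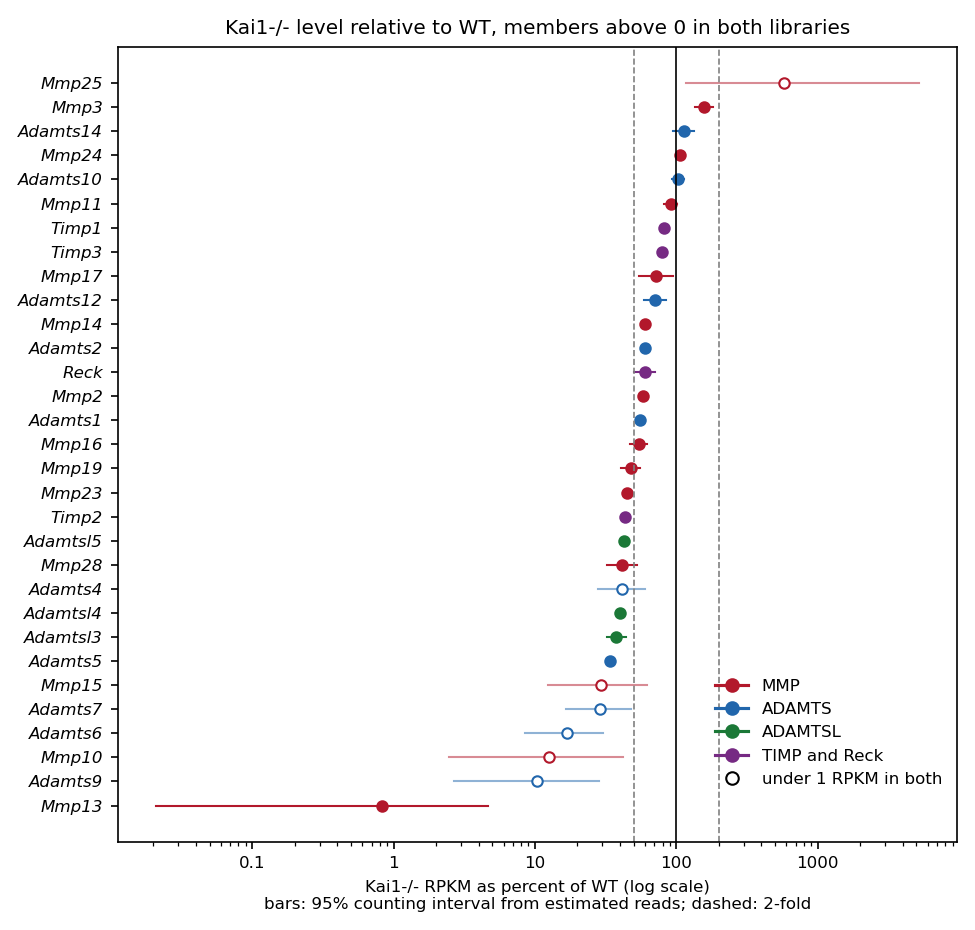
Points give the Kai1-/- level as a percentage of WT on a log axis for members above 0 in both libraries, with 95% counting intervals as bars, 100% as a solid line and 2-fold as dashed lines; open points are members under 1 RPKM in both libraries. Mmp13 lies far to the left at 0.827%, most members lie between 30% and 100%, and Mmp3 at 156% and Mmp25 are the points whose intervals lie clearly above 100%.

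Interstitial collagenases cut the triple helix of fibrillar collagens. Mmp14, whose product also cuts collagen, is described with the membrane-type MMPs below. Of the genes listed as collagenases, Mmp1a, Mmp1b, Mmp8 and Mmp13, only Mmp13, collagenase 3, had reads. Mmp13 had the widest relative difference of the members above 0 in both libraries. It measured 1.83 RPKM in WT PCs and 0.0151 RPKM in Kai1-/- PCs, or about 134 reads against 1 read. The Kai1-/- level was 0.827% of WT (0.0208% to 4.68%). Its mean was just under 1 RPKM, so it is not among the 23 members counted above. Mmp1a, Mmp1b and Mmp8, the others in this list, were listed at 0 in both libraries.

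Stromelysins 1 and 2, encoded by Mmp3 and Mmp10, cleave proteoglycans, fibronectin and basement membrane proteins and can activate other proMMPs. Mmp3, stromelysin 1, was the member with the clearest difference in the upward direction, at 6.52 RPKM in WT PCs and 10.2 RPKM in Kai1-/- PCs. This was 156% of WT (135% to 181%), but only 110% (95.1% to 128%) with both libraries scaled to Gapdh and 111% (96.2% to 130%) with equal summed RPKM, where the counting interval includes 100%. Mmp10, stromelysin 2, is the closest relative of Mmp3 in the cluster and was low in both libraries, at 0.590 RPKM in WT and 0.0742 RPKM in Kai1-/-, about 26 reads against 3. Its level in Kai1-/- PCs was 12.6% of WT (2.48% to 41.7%). Mmp10 is under 1 RPKM in both libraries and was singled out after its values were seen, because it neighbours Mmp3. Mmp11, stromelysin 3, lies on chromosome 10 and was 12.3 and 11.2 RPKM, a difference within the counting interval (81.8% to 101%).

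The cluster on chromosome 9 therefore held unlike differences between the libraries within 427 kb. In order along the chromosome it comprises Mmp13, Mmp12, Mmp1b, Mmp3, Mmp1a, Mmp10, Mmp8, Mmp27, Mmp20 and Mmp7. Mmp3, which lies between genes listed at 0, was higher in Kai1-/- PCs in the values as deposited. With both libraries scaled to Gapdh, Mmp3 was 110% of WT (95.1% to 128%). Mmp13 at one end and Mmp10 on the other side were lower. Mmp27 had about 1 read in WT PCs and 0 in Kai1-/- PCs, and the 6 other genes were at 0 in both. All 3 genes above 0 in both libraries had the AP-1 motif in the promoters printed above, and so did Mmp1a, Mmp1b, Mmp7 and Mmp12, which were listed at 0. Of the flanking genes, Dcun1d5 was 44.8 RPKM in WT and 23.8 in Kai1-/- PCs, and Tmem123 was 13.2 and 13.9.

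Gelatinases degrade denatured collagen and the type IV collagen of basement membranes. Mmp2 (chromosome 8, 95351227 to 95377316) was 68.0 RPKM in WT PCs and 39.6 RPKM in Kai1-/- PCs, 58.3% of WT (55.8% to 61.0%). Mmp9, the other gelatinase, was listed at 0 in both libraries, where a count of 0 allows up to 0.0342 RPKM in WT and 0.0378 in Kai1-/- (3 reads). Mmp12, the macrophage elastase, and Mmp7, matrilysin, were also at 0 in both.

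Membrane-type MMPs act at the cell surface, and MMP14 (MT1-MMP) cuts collagen around the cell and activates proMMP2. Mmp14 (chromosome 14, 55050441 to 55060095) was the most abundant protease of the set, at 138 RPKM in WT PCs and 83.4 RPKM in Kai1-/- PCs. This was 60.6% of WT (58.6% to 62.6%), close to the percentage of Mmp2, so the level of Mmp2 relative to Mmp14 was 0.494 in WT and 0.475 in Kai1-/-. Mmp16 (MT3-MMP) was 4.57 and 2.47 RPKM, with a log2 ratio of -0.86. Mmp17, which is anchored by a lipid, was 1.35 and 0.978 RPKM, 72.2% of WT (54.3% to 95.4%). Mmp24 (MT5-MMP) stood apart from Mmp14 and Mmp16 with 23.9 RPKM in WT and 25.2 RPKM in Kai1-/-, a log2 ratio of 0.08 that is close to the median of all genes and turns to below 0 under each of the 5 other scalings. An antisense RNA gene, BC029722, covers 13.6% of the exon bases of Mmp24.

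The remaining MMPs kept were all more than 2-fold lower. Mmp23 (chromosome 4, 155024764 to 155027493), a type II membrane protein with an unusual C-terminal part, was the second most abundant protease, at 91.6 RPKM in WT PCs and 40.8 RPKM in Kai1-/- PCs. It was 44.6% of WT (41.8% to 47.5%). Mmp19 was 5.92 and 2.82 RPKM, and Mmp28, known as epilysin, was 2.55 and 1.05 RPKM, with log2 ratios of -1.04 and -1.20. Mmp19 was 47.7% of WT (40.9% to 55.6%) and Mmp28 41.2% (32.2% to 53.0%). For both genes the interval crosses 2-fold, so a difference of less than 2-fold lies within counting error. Both genes share exon bases with a gene on the opposite strand, Mmp19 23.1% with 1110012D08Rik and Mmp28 12.0% with 1700020L24Rik. The latter had 3.61 RPKM in WT and 1.75 in Kai1-/-. Whether the libraries kept strand is not given in the sources used here, so reads of these pairs cannot be told apart.

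ADAMTS1, ADAMTS4, ADAMTS5 and ADAMTS9 cleave the large proteoglycans aggrecan and versican. Adamts5 (chromosome 16, 85858415 to 85901370) had the lowest log2 ratio of the 23 members kept, -1.55, with 30.6 RPKM in WT PCs and 10.4 RPKM in Kai1-/- PCs. It was 33.9% of WT (32.3% to 35.6%), about 7121 reads against 2183. Adamts1, its neighbour on chromosome 16, was 39.3 and 21.9 RPKM, 55.7% of WT (53.2% to 58.3%). Adamts1 was the more abundant in both libraries. Adamts4 and Adamts9 were under 1 RPKM in both libraries and were lower too, Adamts4 at 0.865 and 0.356 RPKM and Adamts9 at 0.185 and 0.0192 RPKM. Adamts8 and Adamts20 were at 0 in both.

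Procollagen N-propeptidases remove the amino-terminal propeptide of fibrillar procollagens. Adamts2 (chromosome 11, 50415586 to 50621075), the main one for type I procollagen, was the most abundant ADAMTS gene, at 50.0 RPKM in WT PCs and 30.3 RPKM in Kai1-/- PCs. It was 60.6% of WT (58.6% to 62.5%). Adamts14 was 1.85 and 2.10 RPKM, within the counting interval (95.4% to 134%), and its direction turned with Gapdh scaling and with equal summed RPKM, with or without the ribosomal protein genes. Adamts3 had about 3 reads in WT PCs and 0 in Kai1-/- PCs.

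Of the ADAMTS genes left, Adamts10, which acts on fibrillin microfibrils, was 8.40 and 8.65 RPKM, within the counting interval (94.0% to 113%) and with a sign that turned under each of the 5 other scalings. Adamts12, which can cut cartilage oligomeric matrix protein, was 1.82 and 1.29 RPKM, 70.9% of WT (59.1% to 84.5%). Adamts7, which cuts the same substrate, was 0.505 and 0.145 RPKM, and Adamts6 was 0.628 and 0.105 RPKM. Adamts13, the von Willebrand factor-cleaving protease, was listed at 0 in both libraries.

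The ADAMTS-like proteins bind fibrillin microfibrils and other matrix components without cleaving them. All 3 that were kept were more than 2-fold lower, and their ratios lay closer together than those of any other family, from -1.34 to -1.22. Adamtsl5 (chromosome 10, 79801855 to 79811157) was 87.4 RPKM in WT PCs and 37.4 RPKM in Kai1-/- PCs, 42.8% of WT (41.2% to 44.4%). Adamtsl4, which is needed to anchor the lens of the eye, was 36.8 and 14.7 RPKM, 39.9% of WT (37.6% to 42.4%). Adamtsl3 was 3.33 and 1.26 RPKM, 37.7% of WT (32.4% to 43.8%). Adamtsl2, which binds latent TGFβ binding protein, went the other way, listed at 0 in WT PCs and at 0.0984 RPKM in Kai1-/- PCs, about 15 reads and at least 5.57-fold higher than the 3 reads that a count of 0 allows.

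The RNAs of Timp1, Timp2 and Timp3 were far more abundant than those of the proteases, whereas Timp4 and Reck were not. Timp1 was the 49th most abundant of all symbols in WT PCs, at 3518 RPKM, and the 81st in Kai1-/- PCs, at 2882 RPKM. It was 81.9% of WT (81.0% to 82.9%). Timp2 (chromosome 11, 118162383 to 118217054), which besides inhibiting MMPs bridges proMMP2 to MMP14 at the cell surface, was 1060 RPKM in WT and 458 RPKM in Kai1-/-. It was 43.2% of WT (42.7% to 43.7%), the only TIMP more than 2-fold lower. Timp3, the matrix-bound inhibitor, was 498 and 393 RPKM, 79.0% of WT (78.0% to 79.9%), and Timp4 was at 0 in both libraries. Reck, a membrane-anchored MMP inhibitor, was 2.97 and 1.79 RPKM, 60.0% of WT (50.4% to 71.3%). Timp1, Timp3 and Timp4 each lie inside a synapsin gene on the opposite strand, and only Timp3 shares exon bases with it (21.3%, with Syn3), whose own level was 0.0865 RPKM in WT and 0.161 in Kai1-/-.

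The total of each family was lower in Kai1-/- PCs, and its make-up shifted in some families. The summed RPKM of MMP genes was 357 in WT PCs and 218 in Kai1-/- PCs, 61.1% of WT, and Mmp14 contributed 38.6% and 38.2% of it. For ADAMTS genes the sums were 134 and 75.2 RPKM, and the part of Adamts5 in them was 22.8% in WT and 13.8% in Kai1-/-. For ADAMTSL genes they were 128 and 53.4 RPKM, 41.9% of WT. The TIMP genes summed to 5076 and 3734 RPKM, 73.6% of WT, with Timp2 at 20.9% of the TIMP and Reck sum in WT and 12.3% in Kai1-/-.

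**Figure D4:**
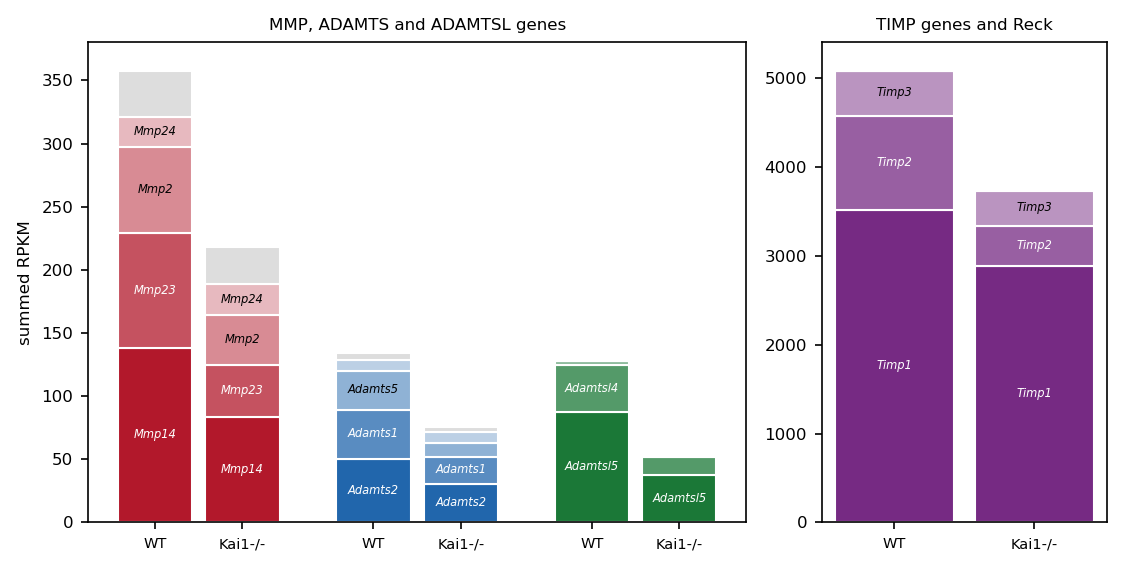
Bars give summed RPKM per family and library from 0, divided into the 4 members with the highest WT level from bottom to top and the rest in grey, with the TIMP genes and Reck on an axis of their own. Every Kai1-/- bar is shorter than its WT bar, from 41.9% of WT for the ADAMTSL genes to 73.5% for the TIMP genes with Reck.

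Ratios within a library do not depend on how the libraries are scaled. Summed TIMP over summed MMP was 14.2 in WT PCs and 17.1 in Kai1-/- PCs, 1.20 times as high. Without Timp1 the ratio was 4.36 in WT and 3.90 in Kai1-/-, the opposite direction. Timp1 and Timp3, at 81.9% and 79.0% of WT, both lay above the MMP sum at 61.1%, and Timp2 at 43.2% lay below it. Timp1 over Timp2 was 3.32 and 6.29. Timp2 over Mmp14 was 7.70 and 5.49, and Timp2 over Mmp2 was 15.6 and 11.6, so Timp2 was lower relative to both proteases it works with. Timp3 over Adamts5 was 16.3 in WT and 37.9 in Kai1-/-, and Timp3 over Adamts1 was 12.7 and 17.9. These are ratios of RNA levels, and protein was not measured in these files.

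The scaling of the libraries moved the levels of all genes together. With both libraries scaled to Gapdh, which was 4238 RPKM in WT and 5997 in Kai1-/-, the median of all genes kept was -0.41 and that of the members -1.22, and 14 of the 23 members were more than 2-fold lower beside 18.4% of all genes kept. With the summed RPKM made equal the medians were -0.39 and -1.21. With the median of all genes set to 0 the members' median was -0.80 and 8 of them were more than 2-fold lower, beside 9.06% of all genes.

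**Figure D5:**
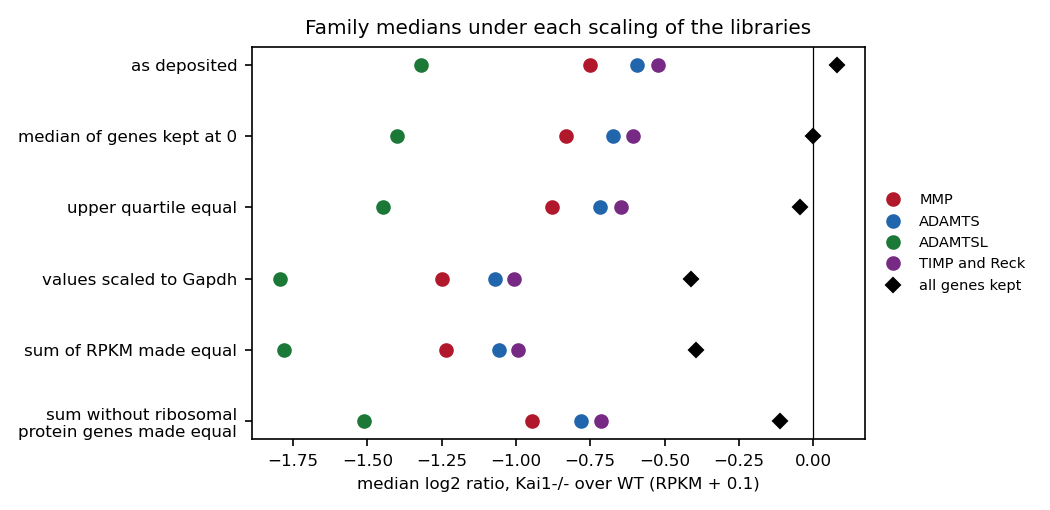
Coloured points give the median log2 ratio (Kai1-/- over WT, RPKM + 0.1) of each family and black diamonds that of all 10068 genes kept, 1 row per scaling of the libraries. A scaling shifts all genes nearly alike, so the distance from the families, from -1.32 (ADAMTSL) to -0.52 (TIMP with Reck) as deposited, to the diamond stays similar while the diamond moves from 0.08 to as low as -0.41.

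Of the 28 members under 1 RPKM in both libraries, 15 were listed at 0 in both. These comprised 8 MMP genes, 6 ADAMTS genes and Timp4. The other 13 reached at most 0.865 RPKM, and 10 were lower and 3 higher in Kai1-/- PCs. Of all 4305 symbols in that range of levels, 66.8% were lower, and the library as a whole had more symbols listed at 0 (6902 in Kai1-/-, 5690 in WT). The 3 higher ones were Adamts15 with about 1 read, Adamtsl2, and Mmp25, a membrane-type MMP of leukocytes, with about 2 reads in WT and 10 in Kai1-/- (118% to 5197% of WT). Mmp15, another membrane-type MMP, was 0.281 and 0.0825 RPKM. These and the other members under 1 RPKM were named after their values were seen.

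The genes that act with these families were described by lists drawn up from general knowledge. Over the lists of partners, 79 of 81 genes were in the tables and 54 were kept, of which 11 were lower by more than 2-fold and 4 were higher by that much, beside 7.81% and 7.98% of all genes kept, with a median log2 ratio of -0.46. Of the 8 genes listed for the activation of MMPs, 6 were kept and 1 changed by more than 2-fold. The list holds proteases and the urokinase receptor gene Plaur, which was within 2-fold. The gene past 2-fold encodes a protease. This was Plat, tissue plasminogen activator, at 8.89 RPKM in WT and 26.1 in Kai1-/-. Of the 5 surface inducers and clearance receptors 4 were kept and 0 changed by more than 2-fold in either direction. Of 6 other protease inhibitors 2 were kept, and Serpine2, protease nexin 1, was 3.44 and 1.29 RPKM. Of the 3 genes for O-fucosylation of thrombospondin repeats, a modification that ADAMTS proteins need for secretion, 2 were in the tables and kept, and 0 changed by more than 2-fold.

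Of 18 substrate genes 12 were kept, with 2 more than 2-fold lower and 2 higher, beside 7.81% and 7.98% of all genes kept. Vcan, which encodes versican, was 7.15 RPKM in WT PCs and 19.5 RPKM in Kai1-/- PCs, so it was 2.73 times as high. Of the genes for proteases that cleave it, only Adamts5 was kept and more than 2-fold lower; Adamts1 had a log2 ratio of -0.84, and Adamts4 and Adamts9 did not pass the filter. Col2a1, type II collagen, was 9.74 and 31.9 RPKM. Eln, which encodes elastin, was 6.81 and 0.867 RPKM, and Col1a2, a chain of type I collagen, was 824 and 377 RPKM. The median log2 ratio of the 12 was -0.47.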

How the data were processed

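RNA was sequenced from 1 WT and 1 Kai1-/- culture of primary aortic PCs. Reads were aligned to mm9 with TopHat 2.0.9 and Bowtie, and the authors deposited 1 table per library with RPKM values of RefSeq genes. Depth and strand are not given in the sources used here.

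Rows without a symbol (38 of 20462) were dropped and repeated symbols averaged, which left 20211. With 1 library per genotype no test was run. Genes with a mean of at least 1 RPKM were kept (10068), the pseudocount was 0.1 RPKM and a change was counted above 2-fold. The members and gene lists were chosen with earlier results of these data known. Members at 1 RPKM or more in either library were named, and of the partner genes those kept and past 2-fold, at most 4 per list; members below 1 RPKM and single cell type markers were named after their values were seen.

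Reads per gene were estimated after the data were seen. Genes with only 1 GENCODE transcript, longer than 800 bases, were used: their low RPKM values, multiplied by transcript length minus fragment length, were matched to whole reads, and with a fragment length of 200 bases, 81.1% of 534 WT values and 78.6% of 318 Kai1-/- values lay within 0.15 of a whole read. Counts for single genes used the longest transcript and are approximate. Intervals are exact conditional binomial (Clopper-Pearson) intervals at 95%, and a count of 0 was taken to allow 3 reads; both cover counting error only. The fitted step and the 2-fold calls were run on simulated read counts that held counting error only, with changes set well past 2-fold. That check does not cover differences between cultures, animals or library preparations. Positions, transcript lengths and overlaps came from GENCODE M1 on NCBIM37. Alternatives were 2 other pseudocounts, 5 scalings, 3 filters, and another treatment of repeated symbols. Python 3.11.15, numpy 2.4.6, pandas 2.3.3, scipy 1.17.1 and matplotlib 3.10.9 were used.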

Additional observations from a re-analysis of the deposited data

How the results depend on the processing

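Of 89 recomputed summary values, 53 moved little, 35 moved further without a change of sign and 1, TIMP over MMP without Timp1, turned its direction. The TIMP over MMP ratio could not move under the scalings, the pseudocounts or the lack of a filter, yet those values are among the 53. A rise from 8 to 10 members more than 2-fold lower was also taken as moving little. The tally is therefore no measure of how stable the results are. With equal upper quartiles the median log2 ratio of the members was -0.85, and the ADAMTS, ADAMTSL and TIMP with Reck medians were -0.72, -1.45 and -0.65. Scaled to Gapdh, the members' median was -1.22, the MMP, ADAMTS, ADAMTSL and TIMP with Reck medians were -1.25, -1.07, -1.80 and -1.01, and 14 members were more than 2-fold lower. With equal summed RPKM these values were -1.21, -1.23, -1.06, -1.78, -0.99 and 14. With the sum taken without ribosomal protein genes the medians were -0.92, -0.94, -0.78, -1.51 and -0.71. With the median of all genes at 0 the TIMP with Reck median was -0.60. A pseudocount of 1 RPKM gave 5 members more than 2-fold lower beside 5.68% of all genes kept, losing Adamtsl3, Mmp19 and Mmp28, and medians of -1.20 for ADAMTSL genes and -0.43 for TIMP genes with Reck. With no filter, 15 of 52 were more than 2-fold lower beside 9.29% of all genes, and the medians were -0.29 for members, -0.13 for MMP, -0.081 for ADAMTS, -1.22 for ADAMTSL and -0.34 for TIMP genes with Reck. This filter admits genes listed at 0 in both libraries, whose log2 ratio is 0. With a mean of at least 5 RPKM, 5 of 15 members were more than 2-fold lower beside 5.37% of all genes, and the MMP, ADAMTS and TIMP medians were -0.43, -0.78 and -0.34. The order of the family medians thus depended on the filter. Leaving Timp1 out of the sum, an alternative chosen after seeing the data, changed the Kai1-/- to WT quotient of TIMP over MMP from 1.20 to 0.895. The cause of the moves under the scalings was not tested.

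Among 192 recomputed values of 24 named members, 13 changed sign, in Adamts10, Adamts14 and Mmp24, and 17 crossed 2-fold, in 9 genes. No paired analysis was possible because WT and Kai1-/- PCs were represented by 1 library each. The depth, sex and culture history behind the libraries limit every value, and the spread between cultures is unknown. Levels under about 0.1 RPKM rest on a handful of reads.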

Other observations

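Of 6 further matrix proteases 4 were kept and 3 were more than 2-fold lower, all cysteine cathepsins. Ctsk, a collagen-degrading cathepsin, was 35.1 RPKM in WT PCs and 10.8 RPKM in Kai1-/- PCs, Ctsl was 160 and 73.7 RPKM, and Ctsb was 144 and 70.5 RPKM. Of 9 ADAM genes 7 were kept, and Adam12 (5.56 and 2.23 RPKM) and Adam19 (22.7 and 9.68 RPKM) were more than 2-fold lower, while the other 5 kept were within 2-fold and the median log2 ratio of the 7 was -0.18. Of 5 astacins 2 were kept and 0 changed by more than 2-fold. Over all genes kept, 7.81% were more than 2-fold lower.

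Among 9 cytokines known to induce MMPs, 5 were kept and 3 were more than 2-fold lower. For this list and the next, the shares over all genes kept were 7.81% lower and 7.98% higher by more than 2-fold. Il6 was 5.11 RPKM in WT PCs and 1.27 RPKM in Kai1-/- PCs, Tgfb2 was 4.65 and 1.33 RPKM, and Lif was 2.95 and 1.05 RPKM. Of 12 transcription factors of the AP-1, ETS and RUNX families, 11 were in the tables and 10 were kept, with 0 more than 2-fold lower and 1 higher. This was Etv4, at 2.80 RPKM in WT and 9.36 RPKM in Kai1-/-. Their median log2 ratio was -0.26.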
